A study of Mus musculus with 5 samples.

Results

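The genes examined were 9 that mark cells of the red cell lineage: the adult globin genes Hba-a1, Hba-a2, Hbb-bs and Hbb-bt, the carbonic anhydrases Car1 and Car2, and the membrane or surface genes Slc4a1, Ermap and Tfrc. They were taken by symbol from a table of 52550 genes, in which all 9 were found, and 8 of them passed the filter on low counts, the exception being Slc4a1. Expression had been measured by Quant-seq, which reads the 3′ end of polyadenylated transcripts, in KL cells (Lin-cKit+Sca1-), the bone marrow fraction that holds the committed myeloid progenitors. Cells came from male mice 20 weeks after tamoxifen, given at 1 mg per day for 5 days to animals aged 3 to 6 months. BcorΔE9-10 mice (3 libraries, labelled scl-Cre-ERT+ and Bcorfl/y) lose exons 9 and 10 of Bcor, a Polycomb repressor subunit, and so make a truncated protein. BcorWT mice (2 libraries, labelled scl-Cre-ERT+ and Bcorwt/y) carried the same Cre and had the same tamoxifen with an intact Bcor gene. The Cre is driven by a Tal1 (SCL) enhancer active in blood stem cells. Marrow had been treated to lyse red cells and depleted of lineage-positive cells before the sort. The labels do not say that each library is a separate mouse, so p-values measure the spread between these libraries only.

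Haemoglobin of the adult is built from paired alpha and beta globin chains, which in the mouse are each made from a pair of neighbouring genes that switch on late in red cell development. Car1 and Car2 are enzymes that interconvert carbon dioxide and bicarbonate, and Slc4a1 (band 3) carries the bicarbonate across the red cell membrane in exchange for chloride and anchors the membrane skeleton. Ermap is a butyrophilin-related surface protein of erythroid cells, and Tfrc, the transferrin receptor, brings in iron for haem and is also used by dividing cells of other lineages. Committed erythroid progenitors lie within the KL gate, whereas maturing erythroblasts carry Ter-119 and lose Kit.

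The 4 adult globin genes lie in 2 clusters (mm10, the positions in the table being those of GENCODE M21). Hba-a1 is on chromosome 11 at chr11:32283511-32284465 and Hba-a2 at chr11:32296489-32297298, both on the plus strand. Hbb-bs is on chromosome 7 at chr7:103826534-103828096 and Hbb-bt at chr7:103812524-103813996, both on the minus strand. The sequences of the 150 bases before the RefSeq start sites (GRCm38.p6, the same build) are shown because the members of each pair varied together over the libraries. Capitals mark 3 motifs searched on both strands: CCAAT, then the TATA-box letters TATAA, and the CACCC-box form CCNCNCCC. Adjoining matches run together.

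Hba-a1, plus strand, chr11:32283522-32283671: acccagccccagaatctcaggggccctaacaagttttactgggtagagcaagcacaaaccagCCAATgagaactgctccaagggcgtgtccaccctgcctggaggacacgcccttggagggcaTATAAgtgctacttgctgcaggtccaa
Hbb-bs, minus strand, chr7:103827929-103828078: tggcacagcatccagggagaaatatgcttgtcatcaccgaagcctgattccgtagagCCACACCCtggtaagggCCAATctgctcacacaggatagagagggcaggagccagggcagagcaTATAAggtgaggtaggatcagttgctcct
Hbb-bt, minus strand, chr7:103813924-103814073: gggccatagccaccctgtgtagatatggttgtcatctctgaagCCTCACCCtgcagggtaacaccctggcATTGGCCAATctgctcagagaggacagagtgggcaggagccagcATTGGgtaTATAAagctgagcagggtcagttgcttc

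The Hba-a2 window shared a run of 147 bases with that of Hba-a1 and is not printed. The Hbb-bs and Hbb-bt windows were the same at 106 of 149 aligned bases (71.1%). TATAA lay 27 to 23 bases before the start of Hba-a1, 29 to 25 before Hbb-bs and 28 to 24 before Hbb-bt. All 4 globin windows held CCAAT and the letters TATAA, which were found in 24.5% and 14.2% of 32851 promoter windows of that length. The beta pair also held CCNCNCCC, which was present in 38.1% of windows. None of the 4 windows held AGATAA or its variant AGATAG, nor TGATAA or its variant TGATAG, the letters searched for GATA factors (16.0% of windows for the set), while the window of Ermap held 1 match. Windows for Car1, Car2 and Slc4a1 were not analysed here.

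Libraries held 5998924 to 8303999 counts, and values are given as counts or as CPM (counts per 1e+06 counts of the TMM-scaled library). Bcor itself had 196, 168 and 185 counts in BcorΔE9-10 libraries, against 83 and 109 in BcorWT, and was called higher (log2 fold change 0.78, limma adjusted p = 0.0313). The 3′ end that was read lies outside the deleted exons, so this checks neither the deletion nor the labels. Kit, whose protein defines the gate, was at 50.9 ± 2.13 CPM (SD, n = 3) in BcorΔE9-10 and 18.8 ± 0.976 (n = 2) in BcorWT libraries (log2 fold change 1.43, limma adjusted p = 9.82e-05), and Ly6a, which encodes Sca1, had 3 to 8 counts per library. Summed over 10 mature neutrophil genes, the libraries held 147500 to 171500 CPM in BcorΔE9-10 and 213400 to 225500 in BcorWT. The part of the gate and of other cells in the results below was not tested, and more erythroid cells cannot be told apart from more RNA per cell in these bulk samples.

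The alpha globin genes were lowest in a BcorWT library and highest in a BcorΔE9-10 library, with overlap between. Hba-a1 gave 122, 155 and 582 counts in the BcorΔE9-10 libraries, which is 14.4, 25.3 and 67.9 CPM, and 38 and 103 counts (5.39 and 15.2 CPM) in the BcorWT libraries. Hba-a2 had 120, 170 and 614 counts (14.2, 27.7 and 71.6 CPM) against 43 and 100 (6.10 and 14.8 CPM). For both genes BcorΔE9-10 library 3 was far above all others, and BcorWT library 2 stood slightly above BcorΔE9-10 library 1. The log2 fold change of BcorΔE9-10 over BcorWT was 1.71 (SE 0.61) for Hba-a1 and 1.69 (SE 0.61) for Hba-a2, neither passing the test (limma adjusted p = 0.0862 and 0.0904). With edgeR's quasi-likelihood test both were called higher (adjusted p = 0.0365 and 0.0304), and with DESeq2 neither was (adjusted p = 0.256 and 0.224).

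The beta globin genes followed the same order of libraries. Hbb-bs had 103, 134 and 350 counts (12.2, 21.8 and 40.8 CPM) in BcorΔE9-10 and 23 and 110 counts (3.26 and 16.3 CPM) in BcorWT libraries. Hbb-bt had 69, 115 and 292 counts (8.14, 18.7 and 34.1 CPM) against 14 and 65 (1.98 and 9.61 CPM). Again library 3 was highest and BcorWT library 1 lowest, and the groups overlapped because BcorWT library 2 exceeded BcorΔE9-10 library 1. The log2 fold changes of 1.62 (SE 0.57) and 1.98 (SE 0.69) did not pass the test (limma adjusted p = 0.0848 and 0.0810). By edgeR, Hbb-bt was called higher (adjusted p = 0.0438) and Hbb-bs was not (adjusted p = 0.0965), and DESeq2 called neither (adjusted p = 0.296 for Hbb-bt and 0.451 for Hbb-bs).

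**Figure D1:**
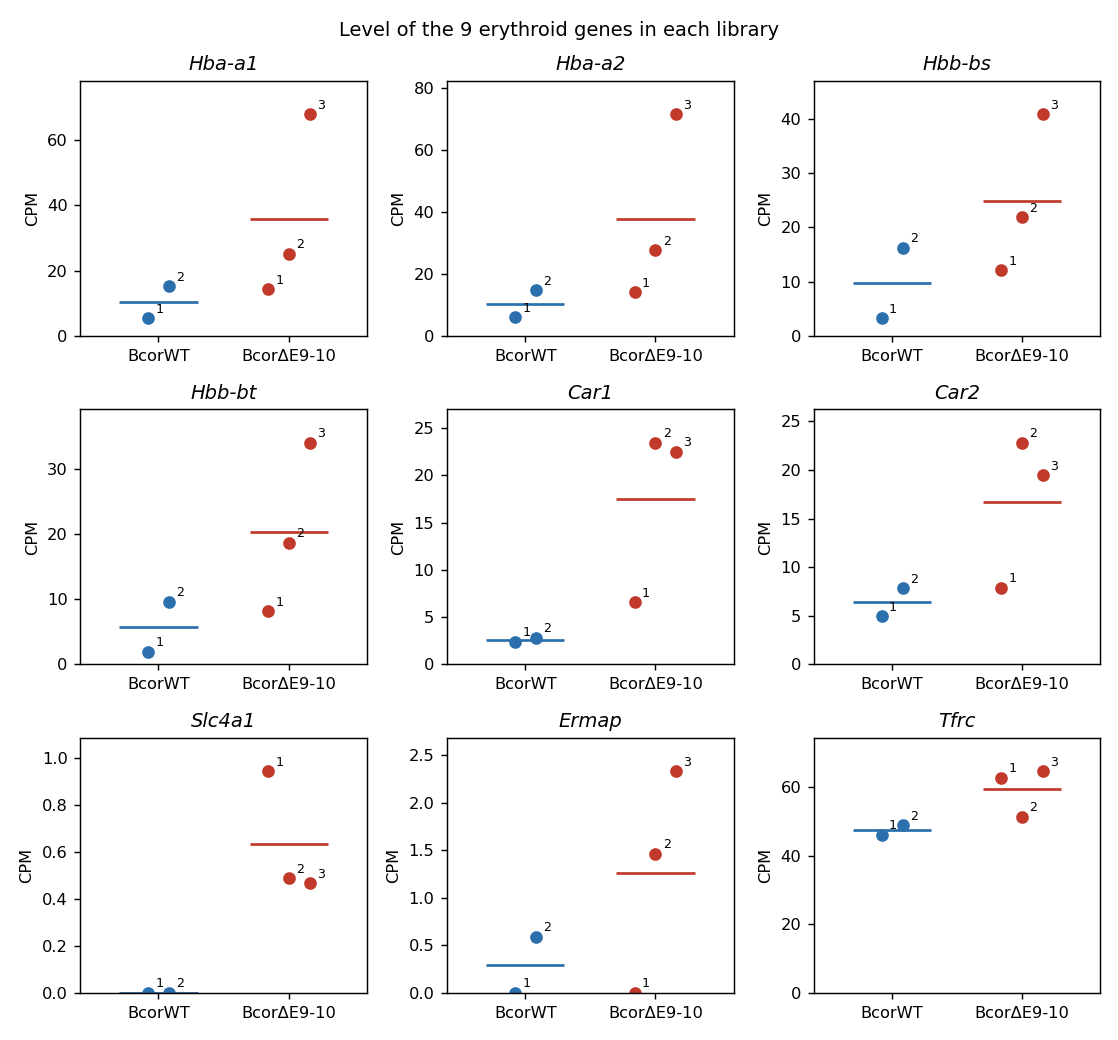
Level of each of the 9 genes (vertical axis, CPM, starting at 0, with a scale of its own for each gene) in the BcorWT (blue) and BcorΔE9-10 (red) libraries. Each point is a library with its replicate number and each line a group mean. BcorΔE9-10 library 3 is the highest point for the 4 globin genes, while libraries 2 and 3 are both high for Car1 and Car2.

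Because the genes within each globin pair share sequence, the 4 were also summed. Of the 30-base words in the last 300 bases of the transcript, 88.9% of those of Hba-a1 also occurred in Hba-a2, and 41.3% of those of Hbb-bs in Hbb-bt. Counts of 1 gene of a pair may therefore hold reads of the other, or lack reads that match both. The sum was 48.8, 93.5 and 214 CPM in the BcorΔE9-10 libraries (mean 119 ± 85.7, SD, n = 3) and 16.7 and 55.9 CPM in the BcorWT libraries (mean 36.3 ± 27.7, n = 2). The ratio of the group means was 3.27, and it fell to 1.96 without BcorΔE9-10 library 3 and to 2.13 without BcorWT library 1. The levels of the groups overlapped, and the ratio rested on BcorΔE9-10 library 3 and BcorWT library 1. For beta globin alone it was 2.91, and 1.96 and 1.75 without those libraries in turn.

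Within a group the libraries differed by far more than counting error. BcorΔE9-10 library 3 held 4.39 times the globin CPM of library 1 (exact 95% counting interval 3.94 to 4.90) and 2.29 times that of library 2 (2.09 to 2.52). BcorWT library 2 held 3.34 times that of BcorWT library 1 (2.71 to 4.15). BcorΔE9-10 library 1 and BcorWT library 2 could not be separated at this depth, with a ratio of 0.874 (0.758 to 1.01). These intervals compare single libraries, not genotypes, and cover counting error only.

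The spread of the globin genes was wide beside that of other genes at similar or higher levels. Among 8904 tested genes with a mean of at least 5 CPM, the median ratio of the highest to the lowest BcorΔE9-10 library was 1.23. It was 4.72 for Hba-a1, 5.06 for Hba-a2, 3.36 for Hbb-bs and 4.18 for Hbb-bt, values reached by 0.0899%, 0.0674%, 0.258% and 0.135% of the genes. Between the BcorWT libraries the ratio was 2.83, 2.43, 4.99 and 4.84 for the same genes, against a median of 1.17, and was reached by 0.865%, 1.58%, 0.157% and 0.191% of genes.

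The balance between the chains varied less than their level. Alpha globin made up 58.5% (95% Wilson interval 53.6 to 63.1), 56.6% (52.5 to 60.6) and 65.1% (62.9 to 67.2) of the 4 globins' counts in the BcorΔE9-10 libraries. In the BcorWT libraries it made up 68.6% (59.8 to 76.3) and 53.7% (48.7 to 58.7), so the shares of the groups overlapped. Hba-a1 gave 46.9% to 50.7% of alpha counts and Hbb-bs 53.8% to 62.9% of beta counts over the 5 libraries. The groups overlapped in the Hba-a1 share. The Hbb-bs share was 59.9% (52.4 to 66.9), 53.8% (47.6 to 59.9) and 54.5% (50.7 to 58.3) in BcorΔE9-10 and 62.2% (46.1 to 75.9) and 62.9% (55.5 to 69.7) in BcorWT libraries, so all BcorΔE9-10 values were lower, and the difference between groups was not tested. Counts of 3′ ends are compared here without regard to transcript length, which this method does not count. The alpha pair shares more of its end sequence than the beta pair. If reads that match both genes of a pair were left out, the alpha share could be too low, which was not tested.

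The neighbours of the adult genes in the clusters were silent or nearly so. Of 7 other globin genes in the table, including the embryonic Hba-x, Hbb-y and Hbb-bh1, 6 had 0 counts in every library, and Hbq1a had 2 counts in BcorΔE9-10 library 1 and none elsewhere. A count of 0 over all 36921513 counts allows a level of up to 0.0813 CPM.

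Car1 was the only one of the 8 tested genes that passed the test. The BcorΔE9-10 libraries gave 56, 144 and 193 counts (6.61, 23.5 and 22.5 CPM), against 17 and 19 (2.41 and 2.81 CPM) for BcorWT. All BcorΔE9-10 libraries were above both BcorWT libraries, with library 1 nearest to them. Car1 rose from 2.61 ± 0.283 CPM (SD, n = 2) to 17.5 ± 9.47 (n = 3), a log2 difference of 2.46 (SE 0.74 and limma adjusted p = 0.0443). That call, 1 of 8, stands beside 6.02% of all 11766 tested genes called higher, and beside 10.1% called in either direction. Over the alternatives the adjusted p of Car1 ranged from 9.26e-07 to 0.143. It was lost with any library but BcorΔE9-10 library 1 left out (limma adjusted p 0.0779, 0.0838, 0.143 and 0.0908 without BcorΔE9-10 library 2, BcorΔE9-10 library 3, BcorWT library 1 and BcorWT library 2). The log2 fold change was 2.20, 2.10, 2.35 and 2.58 in those fits and 3.11 without BcorΔE9-10 library 1.

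Car2 had 67, 140 and 167 counts in BcorΔE9-10 libraries (7.90, 22.8 and 19.5 CPM) and 35 and 53 (4.96 and 7.84 CPM) in BcorWT libraries. As with Car1, BcorΔE9-10 libraries 2 and 3 were high and library 1 was low, and the groups were separated by less than 0.1 CPM. The ratio of BcorΔE9-10 library 1 to BcorWT library 2 was 1.01 (exact 95% counting interval 0.693 to 1.47). The log2 fold change of 1.24 (SE 0.45) did not pass the test (limma adjusted p = 0.0943), although edgeR's quasi-likelihood test and DESeq2 called the gene higher (adjusted p = 0.0305 and 0.0104).

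The carbonic anhydrases and the globin genes differed in which libraries were high. BcorWT library 2 held 1.17 times the Car1 CPM of BcorWT library 1 (exact 95% counting interval 0.574 to 2.39) and 1.58 times its Car2 CPM (1.01 to 2.50), where the globin sum was at 3.34 times. BcorΔE9-10 library 3 held 0.960 times the Car1 CPM of library 2 (0.770 to 1.2) and 0.854 times its Car2 CPM (0.678 to 1.08), where the globin sum was at 2.29 times. The intervals for Car1 do not reach those of the globin sum in either pair of libraries, although between the BcorWT libraries they overlap those of Hba-a1 (1.93 to 4.22) and Hba-a2 (1.68 to 3.56) taken alone. Car1 (chr3:14766216-14808368, minus strand) and Car2 (chr3:14886273-14900770, plus strand) flank Car3, which had 20, 11 and 14 counts in BcorΔE9-10 and 20 and 7 in BcorWT libraries and was not called (limma adjusted p = 0.921).

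**Figure D2:**
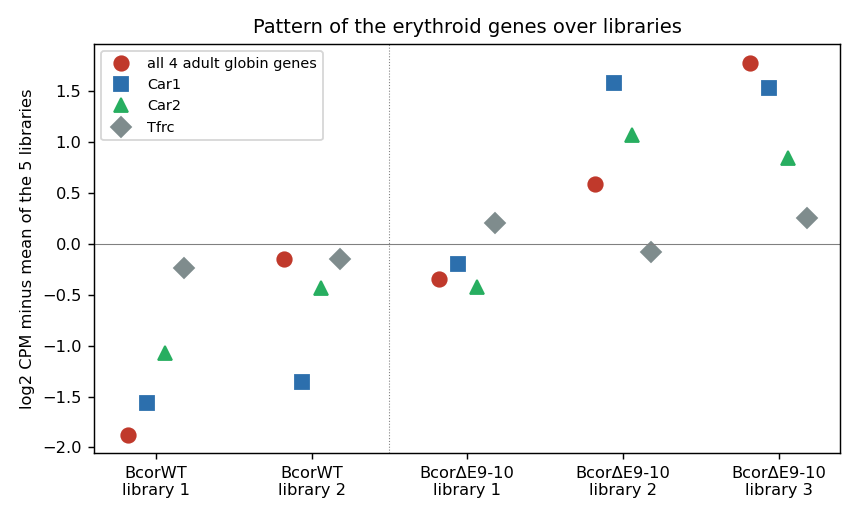
Summed adult globin genes (red circles), Car1 (blue squares), Car2 (green triangles) and Tfrc (grey diamonds) in each library (horizontal axis), as log2 CPM minus the mean of the 5 libraries (vertical axis). The globin sum is highest in BcorΔE9-10 library 3 and much higher in BcorWT library 2 than in BcorWT library 1, whereas Car1 is alike in the BcorWT libraries and high in BcorΔE9-10 libraries 2 and 3.

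Slc4a1 (chr11:102348824-102366203, minus strand) was detected in the BcorΔE9-10 libraries alone, at very low counts. It had 8, 3 and 4 counts there and 0 in both BcorWT libraries. With a floor of 3 counts over the pooled BcorWT group, the level in BcorΔE9-10 was at least 2.98-fold higher, a bound that takes the 15 counts of BcorΔE9-10 as exact. The ratio of BcorΔE9-10 library 1, the highest, to each BcorWT library had exact 95% counting limits from 1.42 and 1.36 upwards. The gene was below the filter of the main test, and the exact two-sided permutation test over libraries gave p = 0.2, the smallest that its 10 arrangements allow.

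Ermap (chr4:119175457-119190011, minus strand) gave 0, 9 and 20 counts in BcorΔE9-10, against 0 and 4 in BcorWT. The groups overlapped, with a library at 0 in each, and its log2 fold change of 1.37 had an SE of 1.70 (limma adjusted p = 0.659). Leaving out BcorWT library 1 turned the estimate to -0.27.

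Tfrc (chr16:32608920-32632794, plus strand) was at 62.8, 51.3 and 64.6 CPM in the BcorΔE9-10 libraries (532, 315 and 554 counts) and at 46.1 and 48.8 CPM in the BcorWT libraries (325 and 330 counts). All BcorΔE9-10 libraries were higher, but library 2 only narrowly, and the order of those libraries was not that of the globin or carbonic anhydrase genes. The log2 fold change of 0.33 (SE 0.15) did not pass the test (limma adjusted p = 0.174) and stayed between 0.26 and 0.42 with each library left out in turn. Tfrc varied little within the groups, by 1.26 times among BcorΔE9-10 and 1.06 times between BcorWT libraries.

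The median log2 fold change of the 8 tested genes was 1.66, against 0.00 over all genes tested. It is a description only, since Ermap passed the filter through BcorΔE9-10 libraries 2 and 3 and was not tested with either left out, and Slc4a1 did not pass it. Of the 8, 3 (Car1, Car2 and Tfrc) had no overlap between groups, beside 22.6% of all tested genes for which every BcorΔE9-10 library was above every BcorWT library. Unadjusted p-values were under 0.05 for 7 of the 8, Ermap being the exception, and for 25.3% of all tested genes. The number passing after adjustment depended on the test: 5 with edgeR's quasi-likelihood test (background 7.05% called higher) and 2 with DESeq2 (6.39%). It also depended on the libraries. Without BcorΔE9-10 library 1, 6 of 8 passed (background 5.53%). With BcorΔE9-10 library 2, BcorΔE9-10 library 3 or BcorWT library 1 left out, limma called 0 of 7, 0 of 7 and 0 of 8 (background 4.33%, 4.27% and 2.29% called higher), while 7, 5 and 1 had an unadjusted p under 0.05 (22.3%, 22.1% and 18.1% of all tested genes). Without BcorWT library 2, 1 of 8 was called (background 5.25%), which was Hbb-bs (limma adjusted p = 0.0312) and not Car1, and 6 had an unadjusted p under 0.05 (24.1% of all tested genes). These estimates share libraries and, for the globin pairs, sequence, so they are not independent of each other.

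**Figure D3:**
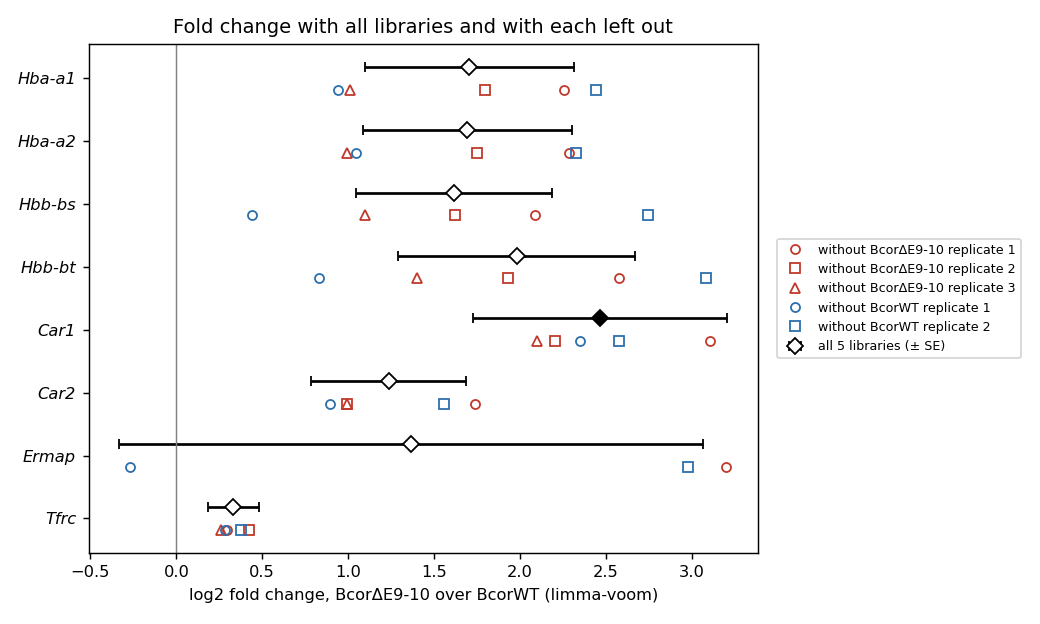
Log2 fold change of BcorΔE9-10 over BcorWT (horizontal axis) for the 8 tested genes, with all 5 libraries (diamonds with bars of 1 SE, filled where the gene passed the test) and with each library left out (red for a BcorΔE9-10, blue for a BcorWT library). Globin estimates without BcorΔE9-10 library 3 or BcorWT library 1 lie at 0.44 to 1.40, below those with all libraries, and those without BcorWT library 2 lie at 2.32 to 3.08.

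Wider genes were examined through 8 lists with 122 genes in the table, of which 69 were tested. Of these, 5 rose and 2 fell, and their median log2 fold change was 0.01. The lists of carbonic anhydrases (14 genes), of the solute carrier 4 family (9) and of butyrophilins (5) hold family relatives of the 9 genes. They were not chosen for a red cell role, so the totals, called wider erythroid here, do not measure an erythroid programme. Calls over all tested genes numbered 708 higher and 481 lower. With total counts alone as scaling the median of all genes moved by 0.14 and that split became 1210 and 197, and the wider erythroid calls became 10 higher and 1 lower.

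Among 15 tested erythroid regulators, 3 rose, beside the 6.02% of all tested genes called higher. By limma 8 of the 15 had an unadjusted p under 0.05, beside 25.3% of all tested genes. Every BcorΔE9-10 library was above both BcorWT libraries for 7 of the 15, beside 22.6% of all tested genes. For 4 every BcorΔE9-10 library was below, beside 20.3%. Ldb1, a cofactor that bridges enhancers and promoters in erythroid cells, had 139, 133 and 188 counts in BcorΔE9-10 and 13 and 23 in BcorWT libraries (log2 fold change 2.95, SE 0.43, limma adjusted p = 0.000455). Tal1 had 78, 61 and 96 against 37 and 16 counts (1.48, SE 0.38, limma adjusted p = 0.0202). Lmo2, which joins Tal1 and Ldb1 in a complex, was at 54.7 ± 1.32 CPM (SD, n = 3) against 29.2 ± 3.03 (n = 2), a log2 difference of 0.91 (SE 0.16, limma adjusted p = 0.00163). Each of these 3 was among the 7 in which every BcorΔE9-10 library was above both BcorWT libraries. All 3 genes are also expressed in stem cells and other progenitors, and an element of Tal1 drives the Cre in both groups.

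Several regulators of the erythroid fate had few counts. Gata1, the master factor of the lineage, had 4, 17 and 11 counts in BcorΔE9-10 and 15 and 19 in BcorWT libraries, with no pass (log2 fold change -1.09, limma adjusted p = 0.30). Klf1, an activator of the beta globin gene, had 5, 10 and 8 against 0 and 2 counts, and Epor, the erythropoietin receptor, had 0 to 2 counts in every library. Zfpm1 (FOG1), a GATA1 cofactor, had 20, 16 and 37 against 2 and 10 counts, and Gfi1b, a repressor in erythroid cells, had 3, 8 and 27 against 1 and 0, neither passing the test (limma adjusted p = 0.107 and 0.130). Other genes of the list were well detected. Nfe2, a factor that acts on the globin locus and in megakaryocytes, had 307 to 478 counts per library. Its CPM was lower in every BcorΔE9-10 library than in both BcorWT libraries, with no pass (log2 fold change -0.26, limma adjusted p = 0.241). The genes of this paragraph were chosen for naming after their values were seen.

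None of the 11 tested genes of the red cell membrane and surface passed limma's test, beside 10.1% of all tested genes called in either direction. By limma 1 had an unadjusted p under 0.05 (25.3% of all tested genes did), and the median log2 fold change was 0.32. Called higher were 1 by edgeR and 0 by DESeq2, beside 7.05% and 6.39% of all tested genes. The gene called by edgeR was Icam4, an adhesion protein of the red cell surface, with 47, 31 and 42 counts in BcorΔE9-10 and 15 and 13 in BcorWT libraries (log2 fold change 1.32, limma adjusted p = 0.0753), and it was chosen for naming after its values were seen. The most abundant were Cd24a, at 377 ± 4.37 CPM (SD, n = 3) against 347 ± 53.2 (n = 2), and the membrane skeleton gene Add1, at 53.5 ± 4.06 against 66.0 ± 10.5.

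Of 23 tested genes of haem synthesis and iron handling, 1 rose by limma, as it did by edgeR and DESeq2, beside 6.02%, 7.05% and 6.39% of all tested genes called higher. By limma 6 of the 23 had an unadjusted p under 0.05, beside 25.3% of all tested genes. Alas1, the rate-limiting enzyme of haem synthesis outside the red cell lineage, was at 89.1 ± 5.25 CPM (SD, n = 3) against 44.9 ± 21.4 (n = 2), a log2 difference of 1.08 (SE 0.20, limma adjusted p = 0.00312). Alas2, the erythroid form of the enzyme, had 2, 0 and 2 counts against 0 and 5. The ferritin genes Fth1 and Ftl1, which store the iron that Tfrc brings in, did not pass by limma (log2 fold changes -0.35 and -0.36, limma adjusted p = 0.0842 and 0.0778) but were called lower by DESeq2 (adjusted p = 0.0493 for each).

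Relatives of the anion exchanger, the carbonic anhydrases and Ermap were also read. Slc4a2, the anion exchanger of most other cells, fell from 44.5 ± 0.517 CPM (SD, n = 2) to 29.8 ± 0.871 (n = 3), a log2 difference of -0.57 (SE 0.15, limma adjusted p = 0.0221), and Slc4a7, a bicarbonate transporter of the same family, did not pass (0.04, limma adjusted p = 0.955). Beside Car1 and Car2, only 3 of 14 other carbonic anhydrases were tested. None was called by limma, edgeR or DESeq2, beside 10.1%, 11.2% and 10.9% of all tested genes called in either direction. None had an unadjusted p under 0.05 in any of them, beside 25.3%, 25.7% and 22.0%, and 3 genes are too few to read this as a result. Car9 had 31, 15 and 24 counts against 7 and 21. Of the butyrophilin relatives only Btnl9 was tested, and it did not pass (-0.58, limma adjusted p = 0.0688).

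Among 13 tested genes of red cell maturation, 1 rose and 1 fell, beside 6.02% and 4.09% of all tested genes. The list had a median log2 fold change of -0.30, 8 of its tested genes had an unadjusted p under 0.05 by limma (25.3% of all tested genes did), and 8 were lower in every BcorΔE9-10 library than in both BcorWT libraries, beside 20.3% of all tested genes. The membrane skeleton gene Add3 rose (log2 fold change 0.71, limma adjusted p = 0.0118) and Gpx1, an antioxidant enzyme, fell (-0.50, limma adjusted p = 0.000781). Gpx1 was at 2674 ± 56.6 CPM (SD, n = 3) against 3774 ± 118 (n = 2). Bnip3l, which clears mitochondria from reticulocytes, did not pass (0.11, limma adjusted p = 0.590).

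**Figure D4:**
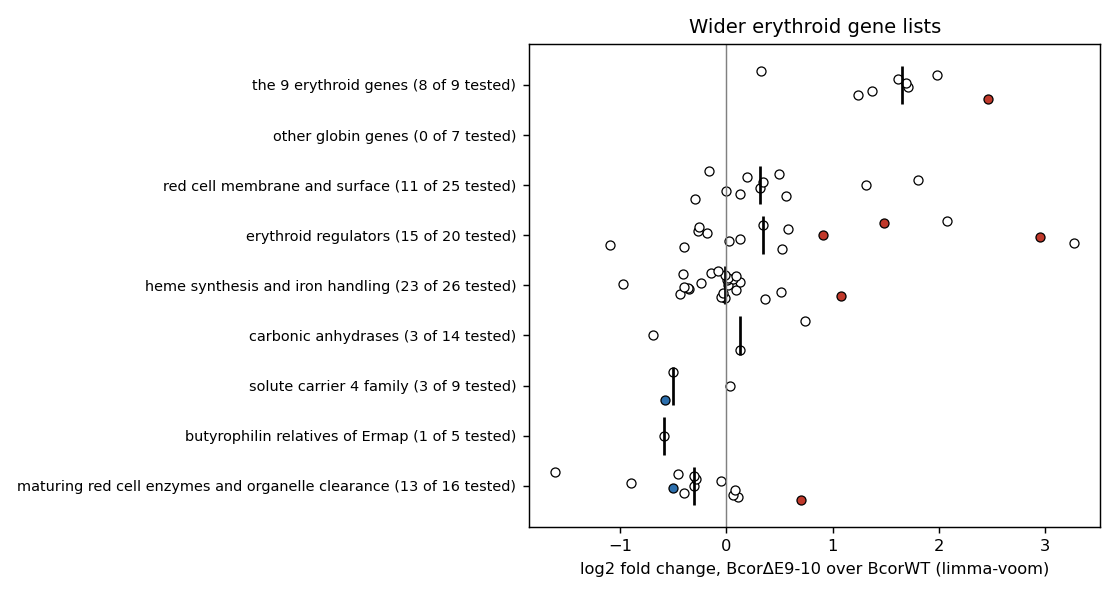
Log2 fold change of BcorΔE9-10 over BcorWT (horizontal axis) for the tested genes of the 9 erythroid genes and of 8 wider erythroid lists (rows). The row of other globin genes is empty, since none of those genes was tested. Each circle is a gene, red where called higher and blue where called lower, and each black line is the median of the list. The 9 genes have a median of 1.66 over the 8 tested, and the wider lists have medians between -0.58 and 0.34.

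The genes nearest to the summed globins in pattern were sought over log2 CPM of the 5 libraries, centred for each gene, among 9866 tested genes. By the root mean square difference, the nearest were Rfx3 (0.24), Zfpm1 (0.42) and Alg10b (0.45), where the globin sum itself had an SD of 1.34. All 3 had few counts, Rfx3 having 6, 13 and 39 in BcorΔE9-10 and 2 and 8 in BcorWT libraries. For Car1 the nearest were Tox (0.22), Adam9 (0.33) and Mterf3 (0.34), and for Car2 they were Fbxw9 (0.14), Dph7 (0.17) and Socs3 (0.19). No gene was among the 3 nearest of both the globin sum and Car1. For Tfrc, Wee1 and Hbp1 were among the nearest, each within 0.03. For Ermap they were Marveld2 (0.34), Rab11fip2 (0.38) and Slc25a32 (0.46). These are descriptions over 5 libraries in which the groups differ.

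Marker genes of other cell types also differed between the libraries. Of 7 tested basophil and mast cell genes 4 fell, of 5 tested eosinophil genes 4 fell, and of 10 tested mature neutrophil genes 5 fell, beside 4.09% of all tested genes called lower. None of the 10 granulocyte-monocyte progenitor genes, the 7 tested megakaryocyte genes, the 6 B cell or the 6 T and NK cell genes was called by limma. At an unadjusted p under 0.05 limma had 3 of these progenitor genes, 1 megakaryocyte, 1 B cell and 3 T and NK cell genes, beside 25.3% of all tested genes. Both edgeR and DESeq2 called 0 of the first 3 lists and 1 T and NK cell gene, higher, beside 7.05% and 6.39% of all tested genes called higher. Among 5 tested genes of stem and multipotent progenitors 1 rose, which was Kit, beside 6.02% of all tested genes called higher. The macrophage genes C1qa and C1qb had 21 and 12 counts in BcorWT library 2, the BcorWT library with more globin, against 0 to 1 and 0 in the other libraries. Axl had 9 counts there, against 0, 1 and 1 in BcorΔE9-10 libraries and 3 in BcorWT library 1. The whole macrophage list summed to 123 to 173 CPM in BcorΔE9-10 and to 164 and 150 CPM in BcorWT libraries 1 and 2, most of it Vcam1. Without Vcam1 it summed to 1.77, 2.44 and 3.15 CPM in BcorΔE9-10 and to 5.67 and 8.73 CPM in BcorWT libraries, and without C1qa and C1qb as well to 5.67 and 3.84 CPM in the BcorWT libraries, so the higher value of BcorWT library 2 rested on those genes. C1qc, Cd5l, Mertk and Spic were at 0 in BcorWT library 2, and Adgre1 had 11 counts there against 33 in BcorWT library 1. These genes were chosen for naming after their values were seen. The part of these cells in the globin levels was not tested.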

How the data were processed

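Libraries were made with the Quant-seq 3′ kit. The authors demultiplexed and trimmed reads, aligned them to mm10 with HISAT2 and counted them per gene with Subread (version 1.5.0-p3), and deposited a table of raw, unnormalised counts. Options for multi-mapping reads and strand are not given in the sources used here. All columns were matched to samples. Genes passing filterByExpr (minimum count 10, minimum total 15) were scaled by TMM, and genotype, the only term, was tested by limma-voom (limma version 3.58.1), with Benjamini-Hochberg adjustment over 11766 genes and a threshold of 0.05. All tests were two-sided. R version 4.3.3, edgeR version 4.0.16 and DESeq2 version 1.42.0 were used. Procedures were tested on simulated data. Intervals (95%, Wilson or exact) cover counting error only, since reads carried no molecular identifiers. Within groups, chi-square per gene was 6.01 to 11.6 (1 being sampling noise), so no library was taken for a copy of another, which does not show that they are separate mice.

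Alternatives covered the test, scaling, filter, quality weights, depth, summing globin pairs, leaving out each library, GC content of transcript ends and a replicate block. Members and lists were chosen with earlier results of these data known. Named genes were the 9, Bcor, the cell markers, up to 3 called per direction and the 2 most abundant of each list, and the 3 nearest in pattern, over log2 CPM with a prior count of 2. Of the list genes, Ahsp and Rhex were not matched. Some named genes are not reported here.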

Additional observations from a re-analysis of the deposited data

How the results depend on the processing

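The number of the 9 genes called was 1 and became 5 with edgeR's quasi-likelihood test, 2 with DESeq2, 3 with total counts alone (10.3% of all genes called higher), 7 of 9 with no expression filter (4.07%; Slc4a1 among them, adjusted p = 0.0281), 6 with a replicate block (7.57%) and 5 with that block and the GC trend removed (6.23%). It was 0 in limma with sample quality weights and with the GC trend removed, where 7 and 5 had an unadjusted p under 0.05 (23.5% and 24.2% of all genes; 5.06% and 4.94% called higher), and 0 to 6 with a library left out. Of 69 tested wider erythroid genes 7 were called, beside 1189 of all 11766 tested genes. With total counts alone 11 of the 69 were called, beside 1407 of 11766, and with the replicate block 11, beside 1454 of 11766. Calls over all genes thus rose in the same settings. Wider erythroid calls ranged from 4 (without BcorΔE9-10 library 3) to 6 with a BcorΔE9-10 library left out. Calls over all genes moved from 1189 to 774, 723 and 558 without BcorΔE9-10 library 2, BcorΔE9-10 library 3 and BcorWT library 1, and to at most 1200 with another left out. The log2 fold change of Ermap reversed to -0.27 without BcorWT library 1 and was up to 3.20 with another library left out. Of the other comparisons of single genes with their main value, 104 kept their side of the threshold, 27 gained a call and 6, all of Car1, lost it. The labels do not say that libraries of the same number were paired. Deviations of same-numbered libraries correlated at 0.0573 and 0.0667. With 2 BcorWT libraries the deviations of 1 mirror those of the other, so the correlations cannot show whether the numbers were paired. BcorΔE9-10 library 3 is alone in its block and does not enter the genotype estimate of the block fits. The block result is therefore no evidence on the calls. Fits with 1 BcorWT library assume that it varies like the BcorΔE9-10 libraries. Groups of 3 and 2 and counts of at most 20 for Slc4a1 and Ermap limit what could be shown. With no expression filter 19399 genes, including those near 0 counts, entered the variance fit, and the SE of Hba-a1 fell from 0.606 to 0.443. For Slc4a1, with 8, 3 and 4 counts against 0 and 0, the call without the filter stands beside p = 0.2 in the exact permutation test.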
